A study of Mus musculus with 4 samples.

Results

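The platelet-derived growth factor (PDGF) genes described here are the 4 ligand genes Pdgfa, Pdgfb, Pdgfc and Pdgfd and the 2 receptor genes Pdgfra and Pdgfrb. They were chosen by symbol, and all 6 were found among the 23377 genes of the count table. Messenger RNA was sequenced from mouse cancer-associated fibroblasts (CAFs), the fibroblasts that live within a tumour. The libraries titled RES4, with the phenotype label of resistant tumours (2 libraries), were compared with those titled WTA, labelled as coming from normal tumours (2 libraries). The series deals with lactate from tumour cells and how tumours adapt to inhibitors of MET and EGFR. The labels name no mouse strain, age, sex, tumour model, sort or drug for either group, and both groups share the labelled cell type. Each group's titles share 1 name, so a trait of that tumour or culture cannot be told apart from the group. The design text calls the replicates biological, but whether they came from separate animals or cultures is not labelled, so each p-value covers only how far these libraries vary, and part of that may be technical.

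PDGF chains pair into disulfide-linked dimers that bring receptor tyrosine kinases together at the cell surface. The alpha receptor (Pdgfra) binds A, B and C chains, and the beta receptor (Pdgfrb) binds B and, as a homodimer, D chains. A and B chains are cut by furin-like proteases inside the cell, whereas C and D chains are secreted with a CUB domain that proteases such as the plasminogen activators remove outside it. Pdgfra is widely used as a marker of fibroblasts, and Pdgfrb of fibroblasts, pericytes and vascular smooth muscle cells.

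Both receptor genes were higher in resistant tumour CAFs, Pdgfra by far the more so, while the ligand genes Pdgfa and Pdgfb were lower. Pdgfc stood at nearly the same level in both groups. Pdgfd was read only in resistant tumour CAFs, at a level too low for the test. The edgeR test thus called 2 members higher and 2 lower among 5 tested (called means an adjusted p under 0.05). Of all 12001 genes tested, 29.4% were called, 15.5% higher and 13.9% lower, so calls were frequent in these libraries whatever the gene. The 2 groups' ranges were apart for 5 of the 6 members, Pdgfd included, and for 64.7% of the genes tested.

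**Figure D1:**
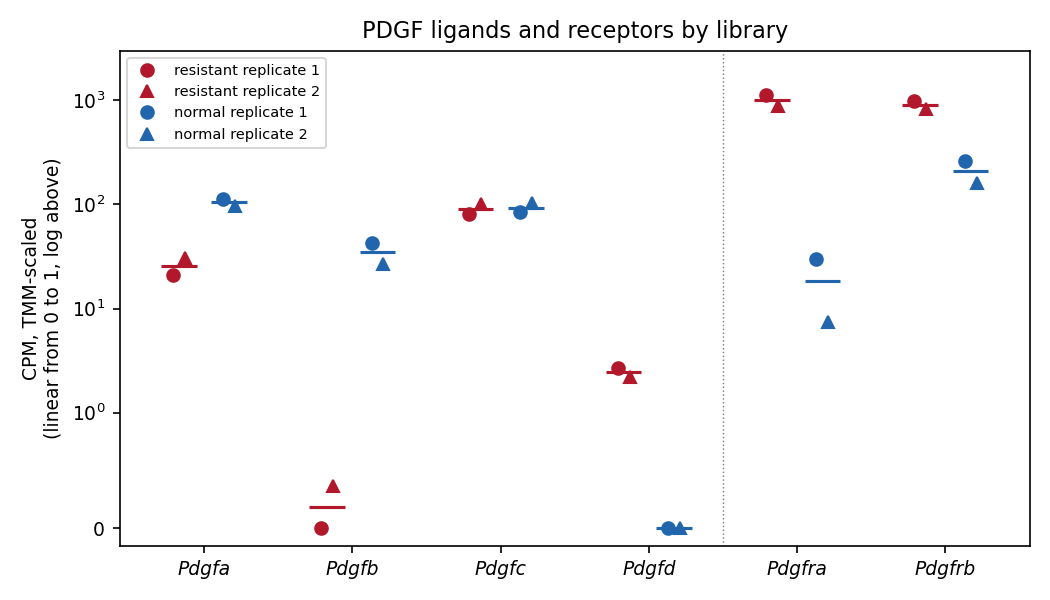
Level of each PDGF gene in each library. The y axis gives CPM, read counts scaled by TMM library size, linear from 0 to 1 and logarithmic above; red marks are resistant and blue marks normal tumour CAFs, circles and triangles are replicates 1 and 2, and bars are group means. Both receptors stand higher in the resistant libraries, Pdgfa and Pdgfb in the normal ones, and the groups overlap for Pdgfc.

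Library totals ran from 2785936 to 5558541 reads, and 1 read was worth 0.168 to 0.381 CPM (CPM, reads relative to library size after TMM scaling). The replicates of each group differed by more than sampling noise. In bulk RNA, fewer cells that express a gene and less of its RNA per cell cannot be told apart. Cell type markers were read as summed CPM, given in replicate order. Their calls, here and below, may be set beside the 15.5% called higher and 13.9% called lower of all genes tested. The 12 fibroblast markers summed to 6844 and 6785 CPM in resistant and 3573 and 3046 CPM in normal libraries, and 10 of 11 tested were called higher. Most of the normal sums is Col1a1 (1180 and 965 CPM) and Col1a2 (1148 and 963 CPM). Lum had no read in the normal group, and Dcn, Fap and Dpt had few there (3 and 1, 5 and 5, and 13 and 3). The 10 Schwann cell and neural crest markers summed to 10.3 and 9.91 CPM in resistant and 1286 and 1138 CPM in normal libraries, with all 7 tested members called lower. The 9 endothelial markers summed to 1.84 to 5.95 CPM with none tested, and Emcn and Tie1 were at 0 throughout. The macrophage sums were 8.42 to 29.0 CPM, with the pan-leukocyte gene Ptprc at 0 in all libraries. Of 3 tested, 1 was called higher, Lyz2 (log2 fold change 3.07 ± 0.63, edgeR adjusted p = 0.00263). The 7 epithelial markers summed to 45.7 and 63.9 CPM in resistant and 9.66 and 9.26 CPM in normal libraries. All of the resistant sum is Krt19, the 1 tested, which was called higher. Epcam, Krt5 and Cdh1 were at 0 throughout. The fibroblast, Schwann cell, macrophage and epithelial sums did not overlap between the groups, whereas the endothelial sums did. The part of such cells in the PDGF results was not tested.

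Pdgfa encodes the A chain, a ligand of the alpha receptor only. It had 55 and 83 reads in resistant replicates 1 and 2, against 457 and 571 reads in normal replicates 1 and 2. In CPM these were 20.9 and 30.5, against 113 and 96.1. Every normal library was above every resistant one, and the lowest normal value was 3.15 times the highest resistant value. The mean fell from 105 ± 12.1 CPM (SD, n = 2) in the normal group to 25.7 ± 6.74 CPM in the resistant group. On the log2 scale Pdgfa fell by 2.02 (SE 0.37), with an edgeR adjusted p of 0.00131. Of its annotated exonic length in GENCODE M21, 26.1% is shared with exons of 6330403L08Rik on the opposite strand. The sources used here do not say whether counting used strand, so reads of the pair cannot be told apart over those bases.

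Pdgfb encodes the B chain, which binds both receptors and is made in tumours mainly by endothelial cells and platelets. It had 0 and 1 reads in the resistant libraries and 172 and 159 reads in the normal libraries. The normal libraries stood at 42.6 and 26.8 CPM, and a library of 0 reads allows up to 1.14 CPM (3 counts, counting error only) in resistant replicate 1. Pooled over a group, the normal-to-resistant ratio was 178 (exact 95% counting interval 31.7 to 7035), and the edgeR test had an adjusted p = 4.38e-05. The fitted log2 fold change of -7.30 ± 0.82 rests on that single resistant read, and without resistant replicate 2, the library that holds it, the fitted value was -10.18. The 6 megakaryocyte and platelet markers summed to 11.03 and 27.16 CPM in resistant and 3.96 and 5.39 CPM in normal libraries. In the normal libraries Pf4, Ppbp, Gp9 and Treml1 were at 0, and Itga2b stood at 2.48 and 3.70 CPM. Of the endothelial markers, Vwf stood at 4.21 and 1.18 CPM there. The part of these cells in the Pdgfb result was not tested.

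Pdgfc encodes the C chain, a ligand of the alpha receptor that is active once its CUB domain is cut off. It had 214 and 276 reads in the resistant and 340 and 611 reads in the normal libraries. The levels were 81.4 and 101.3 CPM against 84.2 and 102.8 CPM, so the groups overlapped and the replicates of a group lay further apart than the group means. The log2 fold change was -0.03 ± 0.32 (adjusted p = 0.949), and it lay between -0.23 and 0.12 over 15 alternative analyses. That missed threshold does not show equal levels, but no alternative moved the value beyond its SE.

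Pdgfd encodes the D chain, a ligand of the beta receptor. It had 7 and 6 reads in the resistant libraries, or 2.66 and 2.20 CPM, and 0 reads in both normal libraries. Pooled over a group and set against 3 counts in the normal group, it was at least 8.08-fold higher in resistant tumour CAFs. It did not pass the filter on low counts and so has no value in the main test. Without that filter it was called higher (adjusted p = 0.00307), and the count of members called higher rose to 3.

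Pdgfra encodes the alpha receptor. It had 2942 and 2401 reads in the resistant libraries, or 1119 and 881 CPM, and 120 and 44 reads in the normal libraries, or 29.7 and 7.41 CPM. The lowest resistant level was 29.6 times the highest normal level. The group means were 18.6 ± 15.8 CPM in normal and 1000.3 ± 168 CPM in resistant libraries (SD, n = 2). Pdgfra thus rose, with a log2 fold change of 5.78 ± 0.52 (SE) and an edgeR adjusted p of 1.10e-05. Of the 12001 genes tested, 22 had a higher mean level in resistant tumour CAFs, by CPM without length, and 9083 had one in normal tumour CAFs. Only 170 had a larger log2 fold change.

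The low level of Pdgfra in normal tumour CAFs was uneven. Normal replicate 1 held 4.01 times the CPM of normal replicate 2, a log2 difference of 1.93. Among 2729 genes within 2-fold of its normal level, 99.6% had a smaller absolute difference between those libraries. The spread moved the estimate, which was 7.003 without normal replicate 1 and 5.03 without normal replicate 2, both past the test. As a share of the resistant mean, Pdgfra stood at 2.97% in normal replicate 1 and 0.740% in normal replicate 2.

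Pdgfrb encodes the beta receptor. It had 2590 and 2250 reads in the resistant libraries, or 985 and 826 CPM, and 1067 and 950 reads in the normal libraries, or 264 and 160 CPM. The groups were apart, with the lowest resistant level 3.12 times the highest normal level. The means were 212 ± 73.9 CPM in normal and 906 ± 113 CPM in resistant libraries. Pdgfrb rose as well, with a log2 fold change of 2.095 ± 0.27 and an edgeR adjusted p of 1.18e-04. Unlike Pdgfra, it was an abundant transcript in both groups, with 33 tested genes above it in resistant and 848 in normal tumour CAFs. The 8 smooth muscle markers summed to 737 and 850 CPM in resistant and 622 and 611 CPM in normal libraries, with 2 of 8 called higher, none lower and Myh11 at 0 in the normal group. The 25.0% called in that list stands against 29.4% of all genes tested. Pdgfrb too was higher in normal replicate 1 than in normal replicate 2, by 1.65 times, a log2 difference larger than in 95.8% of 3064 genes of like normal level.

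**Figure D2:**
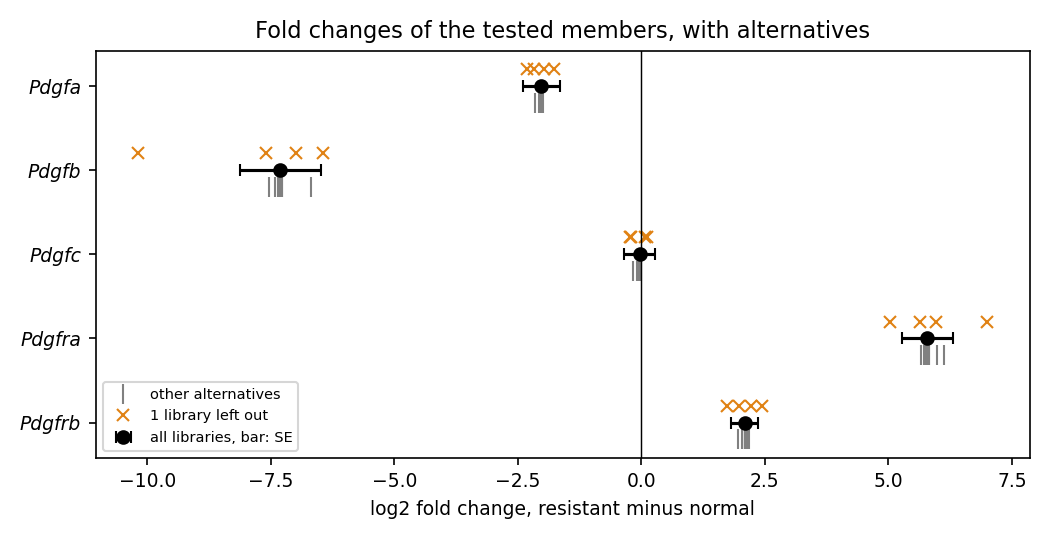
Log2 fold change (resistant minus normal) of the 5 tested members. Black points are the edgeR estimates with all libraries and bars their SE; grey ticks are other scalings, filters and tools, and orange crosses are fits with 1 library left out. No fit moved Pdgfa, Pdgfb, Pdgfra or Pdgfrb across 0, and Pdgfc stayed between -0.23 and 0.12.

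To show the start-site regions of the receptor that changed most and the ligand that changed least, the 250 bases before the annotated start of Pdgfra and Pdgfc are given. They are RefSeq windows of GRCm38.p6, plus strand, 5′ to 3′, at chr5:75152001-75152250 for Pdgfra and chr3:81036166-81036415 for Pdgfc, and neither overlaps an exon annotated in GENCODE M21. The study's files used mm9, and these coordinates are not of that build. Capitals would mark motif matches, and there are none.
Pdgfra: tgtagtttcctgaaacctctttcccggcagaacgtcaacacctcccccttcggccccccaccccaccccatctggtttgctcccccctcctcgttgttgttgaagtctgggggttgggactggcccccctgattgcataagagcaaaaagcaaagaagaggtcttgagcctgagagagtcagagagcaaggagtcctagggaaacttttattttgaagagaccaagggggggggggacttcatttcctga
Pdgfc: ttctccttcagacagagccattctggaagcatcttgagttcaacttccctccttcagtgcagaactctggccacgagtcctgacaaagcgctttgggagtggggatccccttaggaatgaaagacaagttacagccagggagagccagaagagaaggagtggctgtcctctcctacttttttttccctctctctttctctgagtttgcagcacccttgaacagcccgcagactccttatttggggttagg

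Each window was searched on both strands for 5 short motifs, whose shares are over all 32851 windows of that length in the table. The TATA box was searched as TATAAA, which 12.4% of the windows hold. The CCAAT box was searched by the letters of its name, held by 33.8%. The letters of the GC box were GGGCGG, held by 32.7%. For the E-box they were CACGTG, held by 6.02%. The AP-1 site was searched as TGANTCA, where N is any base, held by 6.75%. No match to any of the 5 was found in the windows of Pdgfra and Pdgfc. The GC content was 54.4% for Pdgfra and 50.8% for Pdgfc, against a median of 52.4%. The windows of Pdgfa, which overlap annotated exons, had 66.4% and 72.4% GC with 1 and 2 GC box matches, and that of Pdgfd had 53.6% and 1 TATA box match, 160 bases before the start. No RNA value here bears on what binds these bases.

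The balance between the receptors was read within each library, where it needs no scaling between libraries. Pdgfra had 1.14 and 1.07 times the reads of Pdgfrb in the resistant libraries. In the normal libraries it had 0.112 and 0.0463 times the reads of Pdgfrb. The ranges were apart, with a mean log2 ratio of 0.14 ± 0.06 (SD, n = 2) in the resistant group and -3.79 ± 0.91 in the normal group. The difference was 3.93 on the log2 scale. The exact two-sided permutation test gave p = 0.333, the smallest p that 2 libraries against 2 allow.

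The ligand balance shifted as well. Reads of the CUB domain ligands Pdgfc and Pdgfd together were 4.02 and 3.36 times those of Pdgfa and Pdgfb in the resistant libraries. In the normal libraries they were 0.541 and 0.837 times. The mean log2 ratio was 1.88 ± 0.18 in the resistant group and -0.57 ± 0.45 in the normal group. They differed by 2.45, and the exact two-sided permutation test again gave p = 0.333, the smallest it allows. Pdgfc had nearly the same level in both groups, and Pdgfd had only 13 reads in all. This ratio thus mostly restates the fall of Pdgfa and Pdgfb and is not a separate result.

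**Figure D3:**
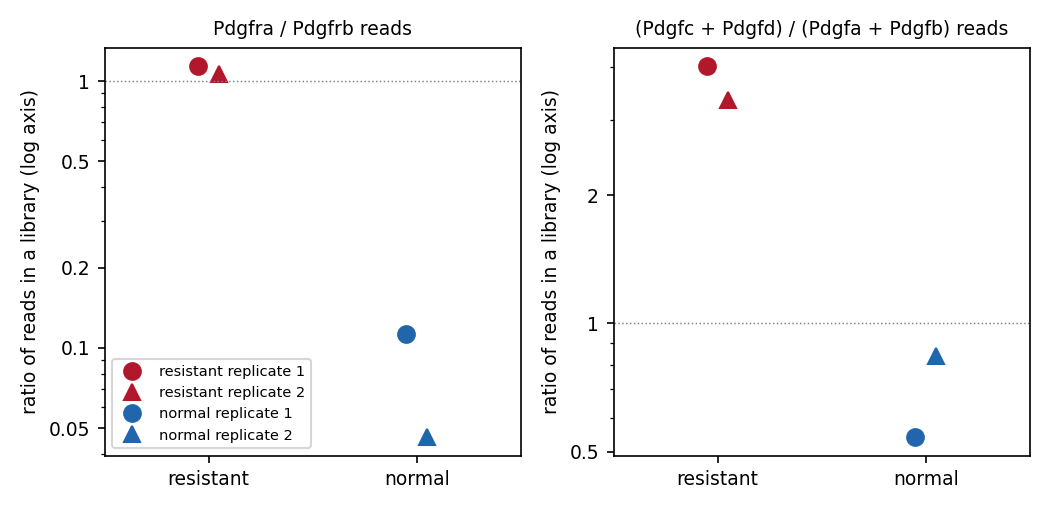
Ratios of reads within each library, on log axes. The left panel divides Pdgfra by Pdgfrb and the right panel divides Pdgfc plus Pdgfd by Pdgfa plus Pdgfb; circles and triangles are replicates 1 and 2 and the dotted line marks a ratio of 1. Both ratios lie above 1 in the resistant libraries (1.14 and 1.07, 4.02 and 3.36) and below 1 in the normal libraries.

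Levels were compared between genes per kilobase of exonic length, as the union of exons in GENCODE M21. In resistant tumour CAFs the order of mean levels was Pdgfrb (165 ± 20.6 CPM per kilobase), Pdgfra (99.8 ± 16.8), Pdgfc (18.0 ± 2.76), Pdgfa (8.24 ± 2.16), Pdgfd (0.771 ± 0.103) and Pdgfb (0.0441 ± 0.0624). The receptors headed the list, and neighbours in it did not overlap between libraries. In normal tumour CAFs the order was Pdgfrb (38.7 ± 13.5 CPM per kilobase), Pdgfa (33.6 ± 3.88), Pdgfc (18.4 ± 2.58), Pdgfb (8.34 ± 2.69), Pdgfra (1.85 ± 1.57) and Pdgfd, which had no read. There only the neighbours Pdgfrb and Pdgfa overlapped between libraries. With the longest coding transcript in place of the union, Pdgfra and Pdgfrb also overlapped in resistant tumour CAFs (146 ± 24.6 and 167 ± 20.8 CPM per kilobase), and Pdgfa passed Pdgfrb in normal tumour CAFs (50.8 ± 5.88 and 39.1 ± 13.6).

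For each of the 5 tested members, the genes of most like pattern were found by Euclidean distance of centred log2 CPM over the 4 libraries, where the mean reached 10 CPM. Nearest to Pdgfra were C1s (a complement protease, distance 0.131), Slc5a7 (a choline transporter, 0.154) and Avpr1a (a vasopressin receptor, 0.267). In normal replicates 1 and 2, C1s had 19 and 5 reads and Slc5a7 and Avpr1a had 8 and 1 reads each, a likeness to Pdgfra that the choice by distance fixes. Nearest to Pdgfrb were Nid1 (the basement membrane protein nidogen, 0.0885), Fhdc1 (0.121) and Cul7 (0.180). Metrn (0.158), Ccdc134 (0.166) and Sec11c (0.196) lay nearest to Pdgfa. Peg3 (0.408), Rorb (0.472) and Sh3tc2 (0.481) lay nearest to Pdgfb, and Edem2 (0.0399), Skp1a (0.0432) and Syncrip (0.0556) to Pdgfc. With 4 libraries in 2 groups, many genes can share a pattern, and the distances are descriptions.

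Proteases that process the ligands mostly did not pass the test, with 1 of 8 tested called higher and 0 lower (median log2 fold change -0.08, against -0.0036 over all genes tested). The 12.5% called stands against 29.4% of all genes tested, most of which did not pass either. The 1 called gene was Plau, the urokinase that can activate the D chain, which rose by 3.32 ± 0.29 (adjusted p = 9.62e-06). Plat, the tissue plasminogen activator that cuts the C chain, had 0.53 ± 0.28 (adjusted p = 0.189). Bmp1, a metalloprotease, had -0.73 ± 0.29 (adjusted p = 0.0836), and Furin, which cuts A and B chains, -0.24 ± 0.30 (adjusted p = 0.602). The likelihood ratio test called 2 higher, and the fit without resistant replicate 1 called 2 higher and 1 lower. Library totals, the replicate block and length offsets each gave 1 lower, and no low-count filter 2 lower.

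Of 10 tested genes for proteins that bind the ligands or act with the receptors, 7 were called higher and 2 lower, with a median log2 fold change of 1.30. The 90.0% called stands against 29.4% of all genes tested. Dcn, whose product decorin can bind PDGF, rose by 7.96 ± 0.62 from 3 and 1 normal reads to 243 and 346 resistant reads. Pdgfrl, named for its likeness to the receptors, rose by 2.90 ± 0.35, and Lrp1, an endocytic receptor that associates with the beta receptor, by 2.72 ± 0.36. Thbs1 (thrombospondin 1) and Cav1 (caveolin 1) rose by 1.32 ± 0.21 and 1.29 ± 0.22. S1pr1, a receptor for sphingosine 1-phosphate, rose by 1.94 ± 0.44. Leaving out normal replicate 2 took its adjusted p to 0.140. Sparc, which binds the B chain, rose by 0.80 ± 0.22, with an adjusted p of 0.0514 once resistant replicate 2 was left out and of 0.273 once normal replicate 2 was.

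Cspg4, which encodes the NG2 proteoglycan that binds the A chain, went the other way. It had 52 and 35 reads in resistant and 1135 and 1147 reads in normal libraries, and on the log2 scale it fell by 3.86 (SE 0.37, edgeR adjusted p 1.64e-05). The levels were 19.8 and 12.8 CPM against 281 and 193 CPM, so the groups did not overlap. Cspg4 also stands in the pericyte and oligodendrocyte precursor marker lists. Without Cspg4, the 9 other pericyte markers summed to 219 and 257 CPM in resistant and 301 and 277 CPM in normal libraries. Of these, 3 were called higher and 1 lower of 6 tested, and Kcnj8 was at 0 in every library. Most of the normal sums is Mcam (285 and 266 CPM), the 1 called lower. Most of the resistant sums is Ndufa4l2 (144 and 208 CPM), called higher. The 5 oligodendrocyte precursor markers other than Cspg4 summed to 1.14 and 0.734 CPM in resistant and 206 and 169 CPM in normal libraries. Both tested members were called lower. Most of those normal sums is Sox10 (185 and 138 CPM), which also stands in the Schwann cell list. Olig1 had 77 and 182 reads in the normal libraries and 0 in the resistant ones. Olig2, Gpr17 and Bcan were near the floor in both groups, with 1 and 0, 6 and 1, and 1 and 0 normal reads. The part of these cells in the Cspg4 result was not tested. Nrp1, the neuropilin 1 co-receptor, fell by 0.75 on the log2 scale (SE 0.25, adjusted p = 0.0382). It did not pass with DESeq2 (adjusted p = 0.0537), length offsets (0.0534), the stricter filter (0.0516), or without normal replicate 1 (0.263) or normal replicate 2 (0.342).

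Of 36 tested signalling genes downstream of the receptors, 7 were called higher and 6 lower, with a median log2 fold change of -0.06. The 36.1% called may be set beside the 29.4% of all genes. Stat5a and Stat3, transcription factors that PDGF receptors can activate, rose by 3.03 ± 0.48 and 1.96 ± 0.28, and the adaptor gene Shc1 by 1.75 ± 0.23. Pik3cb, a catalytic subunit of phosphoinositide 3-kinase, had -2.79 ± 0.43, while the isoform Pik3ca had 0.44 ± 0.36 and did not pass. Hras1 of the Ras pathway fell, with -1.93 ± 0.41. The adaptor gene Nck2 had -1.48 ± 0.38 and missed the threshold without either single normal replicate (adjusted p = 0.0798 and 0.102). Map2k1 and Nras, the uncalled genes of highest mean level, had 0.20 ± 0.25 and -0.48 ± 0.24. The counts fell to 4 higher and 3 lower without either single normal replicate, and 12 were called lower without resistant replicate 1.

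Genes that damp receptor signalling or turn receptors over split in both directions, 4 higher and 5 lower of 18 tested. The median log2 fold change of the list was -0.08. These calls may be set beside the 15.5% called higher and 13.9% called lower of all genes tested. Spry1, a Sprouty inhibitor, rose by 3.57 ± 0.46, Cblb, a ubiquitin ligase, by 2.39 ± 0.37, and Errfi1, a feedback inhibitor of EGFR, by 2.29 ± 0.41. Spry4 rose by 2.08 ± 0.51, but not past the test without normal replicate 1 (adjusted p = 0.147). Slc9a3r1 and Slc9a3r2, which encode the NHERF scaffold proteins that bind PDGF receptors, had -3.14 ± 0.55 and -2.98 ± 0.66. The phosphatase gene Ptprj, whose product acts on the beta receptor, had -2.89 ± 0.45. Ptpn1 had -1.33 ± 0.36 and missed the threshold without either single normal replicate (adjusted p = 0.183 and 0.109). Spry2, named after its value was seen, had -1.83 ± 0.56, with 499 reads in normal replicate 2 against 98 in normal replicate 1. It no longer passed when resistant replicate 1 (adjusted p = 0.148), resistant replicate 2 (0.0809) or normal replicate 2 (0.628) was left out, and 3 of the list were called lower without normal replicate 2. The uncalled gene of highest level, Sh3kbp1, had 0.05 ± 0.28.

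Early response genes, which serum and PDGF induce within hours in cultured fibroblasts, were called higher in 7 of 19 tested and lower in 1, with a median log2 fold change of 0.64. The 42.1% called stands against 29.4% of all genes tested. Cxcl1, Ccl2 and Ccl7, chemokine genes, rose by 5.43 ± 0.60, 2.61 ± 0.36 and 2.55 ± 0.34, and Myc by 2.06 ± 0.25. Ier3, Egr1 and Klf10 rose by 1.45 ± 0.31, 1.29 ± 0.44 and 1.02 ± 0.34, and Ier2 had -1.32 ± 0.42. Without normal replicate 1 these last had adjusted p = 0.0981 (Ier3), 0.238 (Egr1), 0.572 (Klf10) and 0.0857 (Ier2). Without normal replicate 2 they had 0.113, 0.291, 0.146 and 0.244, so 4 were called higher and 0 lower without either single normal replicate. Lower calls numbered 3 without resistant replicate 1, 0 without resistant replicate 2, and 2 with library totals, no low-count filter or the replicate block. Egr1 did not pass without resistant replicate 1 (0.297) or with limma-voom (0.0642), Klf10 without resistant replicate 2 (0.0900) or with library totals (0.0580), and Ier2 without resistant replicate 2 (0.0626). Fos, the classic member, had 19 and 25 reads in resistant and 42 and 89 reads in normal libraries and did not pass (-0.63 ± 0.47). Ccnd1 and Jun, the uncalled genes of highest level, had 0.59 ± 0.21 and -0.66 ± 0.25.

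**Figure D4:**
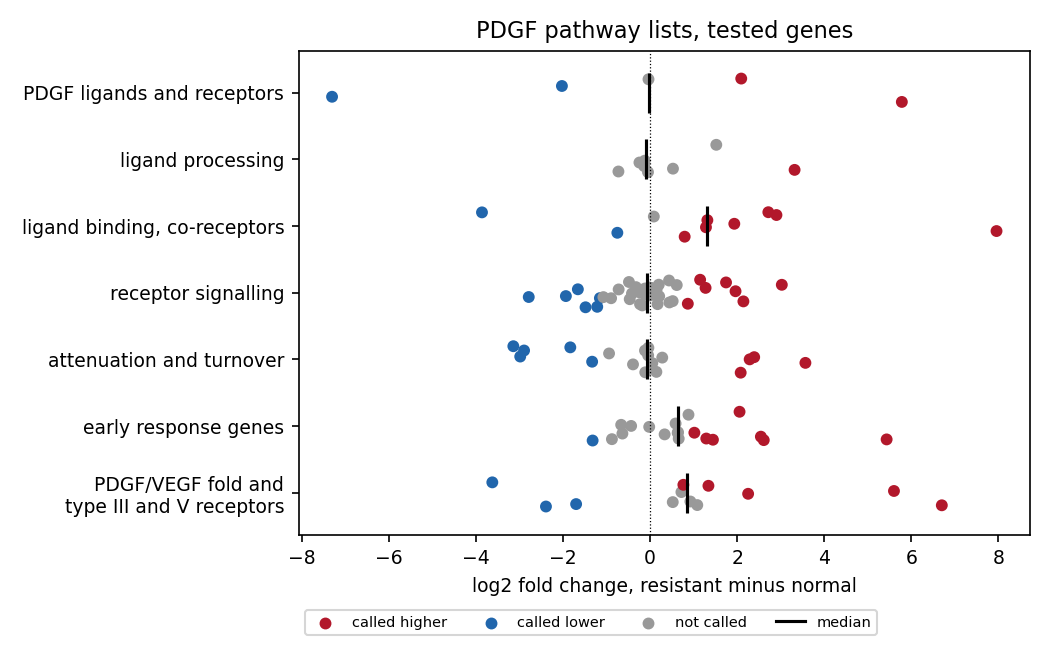
Log2 fold changes (resistant minus normal, fitted) of the tested genes in each PDGF-related list. Each point is a gene, red where called higher, blue where called lower and grey where not called, vertical jitter has no meaning, and black bars are medians. The ligand binding and co-receptor list has its median at 1.30, and the signalling and attenuation lists have theirs near 0.

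PDGF chains share a fold with the VEGF family, and their receptors share the type III kinase family with Kit, Csf1r and Flt3. The list of these families also holds VEGF receptors (type V) and ligands of the type III receptors, such as Csf1, Il34 and Kitl. Of its 12 tested genes, 5 were called higher and 3 lower (median log2 fold change 0.85). The 66.7% called stands against 29.4% of all genes tested. Among the type III receptors, Csf1r had 1.09 ± 0.56 (edgeR adjusted p = 0.173) and did not pass, and Kit and Flt3 were not tested. Kit had 0 reads in both resistant libraries and 6 and 18 reads in the normal libraries. It was at least 4.29-fold lower against 3 counts over the resistant group. Flt3 had 0 reads in every library. Figf, the gene of VEGF-D, rose by 5.60 ± 0.60, from 18 and 5 normal reads to 307 and 344 resistant reads, and Csf1 rose by 2.25 ± 0.30. Flt4, a VEGF receptor, had 9 reads in each resistant library and 0 in both normal libraries, and was at least 11.2-fold higher against 3 counts over the normal group. Pgf (placental growth factor) and Il34, a ligand of Csf1r, had -3.62 ± 0.59 and -2.39 ± 0.44. Flt1 had -1.70 ± 0.39 and Vegfa rose by 1.34 ± 0.33. Flt1 missed the threshold without normal replicate 1 (adjusted p = 0.0739), and Vegfa without normal replicate 1 (0.0942) or normal replicate 2 (0.342). Kitl rose by 0.77 ± 0.24, and did not pass with library totals (0.0521) or without resistant replicate 1 (0.0565), normal replicate 1 (0.177) or normal replicate 2 (0.439). Of this list, 3 were called higher without resistant replicate 1, and 2 without either single normal replicate.

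In the authors' deposited table, Pdgfra, Pdgfrb, Pdgfb and Pdgfa were marked as changed and Pdgfc and Pdgfd were not. The log2 fold changes in the authors' deposited table were 5.74 for Pdgfra, 2.07 for Pdgfrb, -2.05 for Pdgfa, -7.56 for Pdgfb, -0.06 for Pdgfc and 5.99 for Pdgfd. For all 6685 genes with a statistic other than 0, the authors' deposited table holds the absolute log2 fold change less 1, divided by its standard error, within rounding. Its p-values therefore ask for more than a 2-fold change. In the authors' deposited table the adjusted p was 1.71e-21 for Pdgfra, 4.82e-04 for Pdgfb, 0.0186 for Pdgfrb, 0.0799 for Pdgfa and 0.236 for Pdgfd. Pdgfa was thus marked there at an adjusted p above 0.05.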

How the data were processed

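The authors deposited whole-number read counts per gene symbol. Named per the submitters' processing notes are HTSeq 0.7.2, TopHat2 2.1.1, Picard 1.62, bcl2fastq 2, DESeq2 and, as the build, mm9. What each did, with which settings, strand and annotation, is not given in the sources used here. Both of 2 library kits stand in the protocol text, with no library assigned to either. The authors' deposited normalized signal is each count times 1 constant per library: 100% of values came out whole within 0.01 and equalled the deposited counts, and the test on them called 3525 genes. The authors' deposited table gives log2 fold changes, a score (the test statistic) and p-values.

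The main test was that of edgeR 4.0.16 under R 4.3.3 (filterByExpr with minimum count 10, TMM, quasi-likelihood F test, resistant minus normal, Benjamini-Hochberg over 12001 genes, threshold 0.05). The procedure was also run on simulated data, where every gene had the same relative spread beyond counting noise. No result here rests on that run. CPM values use TMM-scaled library sizes. Ratios within libraries had exact permutation tests. Exonic lengths came from GENCODE M21 (GRCm38), found by symbol for 95.1% of tested genes; promoter windows were found for 4 of the 6 members. Hras was read as Hras1.

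Members, lists and rules were chosen with earlier results of these data known. Named were all members, up to 8 called genes per pathway list by adjusted p with up to 2 uncalled genes of highest level, and the 3 genes nearest each tested member; other genes named, such as Fos, Pik3ca, Furin, Nrp1 and Spry2, were chosen after their values were seen. A few genes that the rule names are not reported here. Other tools tried were limma-voom (limma 3.58.1), DESeq2 1.42.0 and edgeR's likelihood ratio test. Other scalings were library totals, upper-quartile factors and relative log expression. The filter was dropped, or set to 50 reads in at least 2 libraries. The replicate number served as a block, and each library was left out; recovered reads and length offsets (loess, span 0.5) were chosen after seeing the data.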

Additional observations from a re-analysis of the deposited data

How the results depend on the processing

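Pdgfa, Pdgfb, Pdgfra and Pdgfrb kept their direction and their call in all 15 alternatives, and Pdgfc stayed uncalled. The log2 fold change ranged from -2.32 to -1.77 for Pdgfa (adjusted p up to 0.0190), from -10.18 to -6.44 for Pdgfb, from 5.029 to 7.003 for Pdgfra and from 1.74 to 2.43 for Pdgfrb; each range ends at fits with 1 library left out. The count of genes called among all tested was 2029 to 4307 with 1 library left out, the low end without normal replicate 2 and 2288 without normal replicate 1, where the spread of the lone library was taken from the other group. Library totals shifted the median over all tested genes to -0.14 (log2). With the replicate block, 4524 genes were called among all tested, and 2 members higher and 2 lower. Deviations of same-numbered libraries correlated at 0.217 across genes, a hint from the data only, since no label says that the numbers pair the libraries. Of 713 values of 48 called pathway genes under alternatives, 664 kept their direction and call, 49 no longer passed, 42 of them with 1 library left out, and 0 reversed. The read depth limits Pdgfd, with 13 reads in all, and the resistant level of Pdgfb, with 1 read.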

Other observations

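The uneven normal libraries seen for Pdgfra were shared by other genes high in resistant tumour CAFs, a pattern looked for after the values of Pdgfra were seen. Of 59 tested genes with a log2 fold change of at least 5 and at least 10 reads in the normal libraries, 55 had a higher CPM in normal replicate 1 than in normal replicate 2, or 93.2%. Among all 11658 tested genes with at least 10 normal reads the share was 49.1%. The median log2 ratio of normal replicate 1 to replicate 2 (0.1 CPM added) was 1.45 in the 59 genes and -0.0086 in all. As a share of the resistant mean, normal replicates 1 and 2 stood at 2.97% and 0.740% for Pdgfra, 3.67% and 0.692% for Figf and 1.51% and 0.237% for Dpt, a fibroblast matrix gene. The shares of Pdgfrb were 29.2% and 17.7%. The 59 genes were picked by the same comparison and share their libraries, and the cause was not tested.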
